A study of Arabidopsis thaliana with 24 samples.

Results

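The transcript response of mpk6 leaves to flg22 was described from 6 of the 24 arrays of a study in Arabidopsis thaliana. The 6 arrays were chosen by their titles: 3 arrays of mpk6 leaves infiltrated with 1 µM flg22, and 3 arrays of mpk6 leaves infiltrated with water. All leaves came from plants 6 weeks old, grown on soil in short days, and were harvested 4 h after infiltration. The titles call the line mpk6-ko; which mutant allele it carries, and how many plants went into each RNA sample, the labels do not say. The other 18 arrays, used only to set the mpk6 response beside others, were 3 each of flg22 and water leaves of 35S::ERF104 (ERF104 driven by the constitutive 35S promoter), of erf104 and of the wild type Col-0. Transcripts were measured as labelled cRNA on the ATH1 array of Affymetrix, and all 22746 probe sets that are not controls were tested.

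Flg22 is a peptide of bacterial flagellin. The receptor kinase FLS2 binds it together with its co-receptor BAK1, and the complex starts calcium influx, an oxidative burst and a chain of MAP kinases that ends in MPK3, MPK4 and MPK6. MPK6 phosphorylates enzymes of ethylene synthesis and transcription factors, among them the ethylene response factor ERF104, and MPK3 shares some of these targets; a leaf without MPK6 shows which transcripts still respond when this kinase is missing.

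Signals are linear scaled units, and the mean of each array after trimming was 500.0 of these units. Median signals ran from 135 to 197 on the mpk6 flg22 arrays and from 148 to 178 on the mpk6 water arrays. Correlations of log2 signal across probe sets ran from 0.84 to 0.86 among the flg22 arrays, from 0.85 to 0.88 among the water arrays and from 0.81 to 0.90 between the treatments. Of the 22746 probe sets, 7284 were called present on all 6 arrays and 8001 absent on all 6, by the authors' detection calls. The labels do not say whether the 3 arrays of a group came from separate plants, so p-values measure the spread between these arrays, which may be technical.

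Replicate 3 of each treatment had the highest signals in probe sets that rise under flg22. A summary was made from probe sets chosen on other arrays, those past the threshold and over 3-fold in the flg22 response of 35S::ERF104. The median log2 signal of the 432 such probe sets that rose there was 9.10, 9.0 and 9.47 on the mpk6 flg22 arrays (replicates 1, 2 and 3), against 7.0, 6.71 and 7.53 on the mpk6 water arrays. The median of the 262 that fell there was 7.24, 6.76 and 7.01 on the flg22 arrays, against 8.16, 8.0 and 8.31 on the water arrays. The treatments did not overlap in either summary, and replicate 3 had the highest level of rising probe sets within both treatments. For falling probe sets, water replicate 3 was the highest water array, while flg22 replicate 3 lay between the other flg22 arrays. Water replicate 3 was the highest water array in 304 of the 494 probe sets that rose in mpk6 (61.5%, against 27.2% of all probe sets), and flg22 replicate 3 was the highest flg22 array in 221 of the 353 that fell (62.6%, against 23.5% of all probe sets). Both counts are of probe sets called on these same mpk6 arrays, so they are a description. The part of the replicate 3 arrays in each result was not tested beyond leaving each out.

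**Figure D1:**
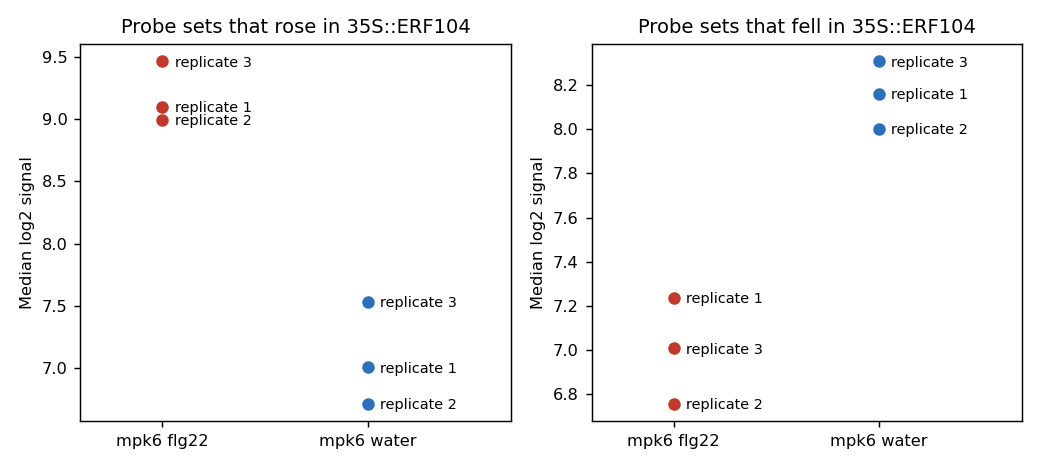
Median log2 signal on each mpk6 array of probe sets chosen in 35S::ERF104 leaves: 432 that rose there (first panel) and 262 that fell there (second panel). Each point is 1 array, mpk6 flg22 in red and mpk6 water in blue, with its replicate number. The flg22 arrays lie above every water array in the first panel and below every water array in the second, and water replicate 3 is the highest water array in both.

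MPK6 itself checks the labels. Its transcript (AT2G43790) had signals of 657, 510 and 975 in mpk6 flg22 and 316, 263 and 465 in mpk6 water, against 1964, 2133 and 1653 in Col-0 flg22 and 1163, 1526 and 724 in Col-0 water. Every mpk6 array was below every Col-0 array of the same treatment, and MPK6 was still called present on all mpk6 arrays. Averaged over treatments, MPK6 was 1.58 ± 0.263 (SE) lower on the log2 scale in mpk6 than in Col-0. The log2 difference of −1.58 did not pass over 12 arrays (limma adjusted p 0.211). Of the fits that left out 1 array, the one without Col-0 water replicate 3 gave the largest difference (limma adjusted p 0.0442). Within mpk6 its log2 change under flg22 was 1.03 ± 0.348, which did not pass (adjusted p 0.151). Whether the probes lie in the disrupted part of the gene was not tested.

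**Figure D2:**
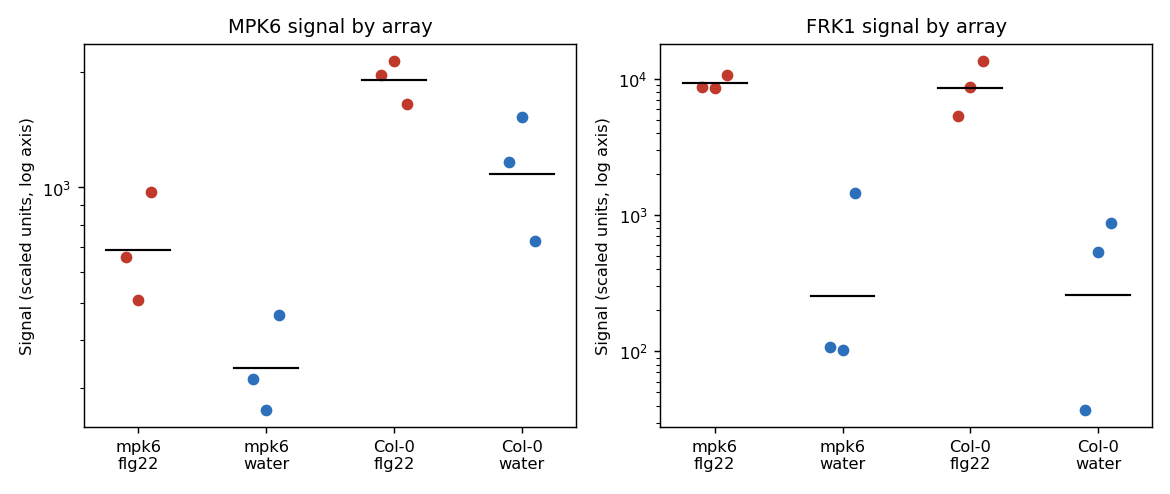
Signal of MPK6 (first panel) and of the flg22 marker FRK1 (second panel) on each array, on a log axis in scaled units. Points are arrays (flg22 in red, water in blue) and bars are geometric means of 3. MPK6 is lower on every mpk6 array than on the Col-0 arrays of the same treatment, and FRK1 is 8569 to 10547 on the mpk6 flg22 arrays, against 103 to 1460 on the mpk6 water arrays.

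Transcripts that rose under flg22 in mpk6 leaves included 5 of 15 listed genes of receptor complexes, 10 of 25 WRKY factor genes, 7 of 17 phenylpropanoid genes and 11 of 15 genes of endoplasmic reticulum (ER) chaperones. Members and lists were chosen with earlier results of these data known, so shares of a list are a description, here and below. Those that fell included GA3OX1 of gibberellin synthesis, the receptor kinase gene ER and the expansin gene EXPA11. Of 22746 probe sets, 847 passed limma's test at an adjusted p under 0.05 (3.72%): 494 rose (2.17%) and 353 fell (1.55%). By more than 3-fold, the fold used in the series text, 330 rose (1.45%) and 125 fell (0.550%). The log2 change of those that rose had a median of 1.92 and ran from 0.94 to 6.82, while those that fell had a median of −1.46 and ran from −4.27 to −0.93. Over all probe sets the median log2 change was 0.01. The risen probe sets had a median of group mean signals of 2148 in mpk6 flg22 and 574 in mpk6 water; those that fell had 593 in mpk6 flg22 and 1567 in mpk6 water. In 846 of the 847 the flg22 and water arrays did not overlap, as they did not in 9.46% of all probe sets with flg22 above water and in 10.2% with flg22 below.

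The size of this count depended on the fit. It ran from 198 without flg22 replicate 1 to 1296 without water replicate 3, and after centring each array on its median it was 356, of which 265 rose and 91 fell. With limma's variance prior set to have no trend, the count was 0; an unadjusted p under 0.05 was then reached by 2732 probe sets, against 3422 with the trend. Each of the 92 genes past the threshold that the naming rule covers kept its direction in every fit that left out 1 array. Where the flg22 and water arrays do not overlap, as in nearly all called probe sets, leaving out 1 array cannot reverse the direction. The kept direction is therefore no test of such genes. Of the 92 genes, 30 kept their call in every fit that left out 1 array, and centring ended the call of 36.

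The 15 largest rises held a receptor-like kinase, an exocyst subunit, an amino acid transporter and several loci without a name. AT2G36210, listed as the small auxin-upregulated gene SAUR45, had signals of 1586, 1627 and 1140 in mpk6 flg22 and 29.6, 7.80 and 8.89 in mpk6 water. It was called absent on the water arrays, so only a bound holds there: it was at least 25.1-fold higher under flg22 (adjusted p 0.000245). A bound sets the mean of the bright group against a floor taken on each array, which is the lowest signal among probe sets called present throughout the group, or the dim probe set's own signal where that is higher.

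AT1G30700, one of the loci listed as berberine bridge enzyme-like, had signals of 7754, 9514 and 8719 in mpk6 flg22 and 236, 71.5 and 193 in mpk6 water. It rose by 5.87 ± 0.385 (SE) on the log2 scale (adjusted p 3.04e-05). FRK1 (AT2G19190), a receptor-like kinase widely used as a marker of flg22 signalling, had signals of 8649, 8569 and 10547 in mpk6 flg22 and 108, 103 and 1460 in mpk6 water. The flg22 arrays agreed closely, and water replicate 3 was more than 10 times as bright as the other water arrays. The rise of FRK1 was 5.18 ± 0.761 (adjusted p 0.00354) with all arrays and 6.45 without water replicate 3.

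The brightest of the 15 largest rises was AT2G17740, with 20603, 22145 and 15227 in mpk6 flg22 and 232, 261 and 1265 in mpk6 water, a log2 change of 5.49 ± 0.515 (adjusted p 0.000245). AT4G01700 had 15144, 16470 and 13558 in mpk6 flg22 and 546, 414 and 833 in mpk6 water, a log2 change of 4.71 ± 0.288 (adjusted p 2.68e-05). The gene table gives neither locus a name. EXO70H1, a subunit of the exocyst complex that tethers secretory vesicles, had 3236, 3227 and 4000 in mpk6 flg22 and 145, 41.3 and 362 in mpk6 water, a log2 change of 4.75 ± 0.581 (adjusted p 0.00111). Others among the 15 were AT2G44370 (log2 change 6.51), AT3G18250 (5.85), AT1G26420 (5.67), the amino acid transporter gene LHT7 (4.66) and AT2G36690 (4.62). All of these, and EXO70H1, were called absent on part of the water arrays. On water replicate 2, AT2G44370, AT3G18250, AT1G26420, LHT7 and AT2G36690 had 4.83, 17.1, 3.89, 12.9 and 38.2, and EXO70H1 had 41.3. All lay below the floor of 52.7 on that array, so these sizes rest partly on background.

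Others of the 15 were called absent in water and had signals under 1000 after flg22. MAPKKK15, a MAP kinase kinase kinase, had 317, 198 and 184 in mpk6 flg22, with a present call on part of the arrays, and 7.98, 3.71 and 6.92 in mpk6 water, where it was called absent; it was at least 3.96-fold higher (adjusted p 0.0113). The wall-associated kinase-like gene WAKL4 was at least 9.03-fold higher (adjusted p 0.0142), the brassinosteroid inactivator gene BIA1 at least 4.24-fold (adjusted p 0.0175) and AT2G42060 at least 9.69-fold (adjusted p 0.00477). Of the 15 largest rises, 9 kept their call whichever array was left out. AT2G44370, AT1G26420, MAPKKK15, BIA1, WAKL4 and LHT7 lost it in 1 or more of the fits without flg22 replicate 1, 2 or 3 or water replicate 1 or 2, at adjusted p of 0.0514 to 0.132.

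The largest falls held genes of wall loosening, hormone synthesis and leaf development. GA3OX1, an enzyme for the last step to active gibberellin, had signals of 98.5, 86.4 and 87.9 in mpk6 flg22, where it was called absent, and 944, 1046 and 998 in mpk6 water. Both groups were tight, and GA3OX1 was at least 10.5-fold lower under flg22 (adjusted p 0.000324). ER (ERECTA, AT2G26330), a receptor kinase of stem growth and stomatal patterning, had 15.3, 11.8 and 110 in mpk6 flg22 and 454, 297 and 400 in mpk6 water. Its fitted log2 change was −3.80 ± 0.848 (adjusted p 0.0302). Its flg22 calls were marginal or absent, and flg22 replicates 1 and 2 lay below their floors of 111 and 69.0. The size of the fall therefore rests on signals at background.

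EXPA11, an alpha-expansin of wall loosening, had 16.4, 7.41 and 9.06 in mpk6 flg22, where it was called absent, and 238, 250 and 134 in mpk6 water, and was at least 3.23-fold lower (adjusted p 0.0248). The arabinogalactan protein gene AGP26 was at least 5.09-fold lower (adjusted p 0.0151). AT2G10940 was the brightest of the falls, with 1295, 1006 and 2489 in mpk6 flg22 and 16673, 4584 and 10907 in mpk6 water, a log2 change of −2.67 ± 0.452 (adjusted p 0.00760). The gene table gives it no name.

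E13L3, which the gene table lists as a callose-binding protein of plasmodesmata, changed by −2.58 ± 0.458 (adjusted p 0.00955) and the cysteine-rich receptor-like kinase gene CRK4 by −2.43 ± 0.445 (adjusted p 0.0112). The galactan synthase gene GALS1 changed by −2.36 and the homeodomain factor gene HAT1 by −2.30. CRK4, GALS1 and HAT1 were called absent on part of the flg22 arrays. On flg22 replicate 1 they had 90.0, 95.5 and 60.4, below its floor of 111. The remaining 6 of the 15 largest falls, with log2 changes from −2.98 (AT3G15570) to −2.35 (AT3G18050), carry no name in the gene table. GA3OX1, AT1G30250, E13L3 and AT3G18050 kept their call whichever array was left out. The other 11 lost it in 1 or more of the fits without flg22 replicate 1 or 2 or without water replicate 1, 2 or 3, at adjusted p of 0.0504 to 0.215.

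**Figure D3:**
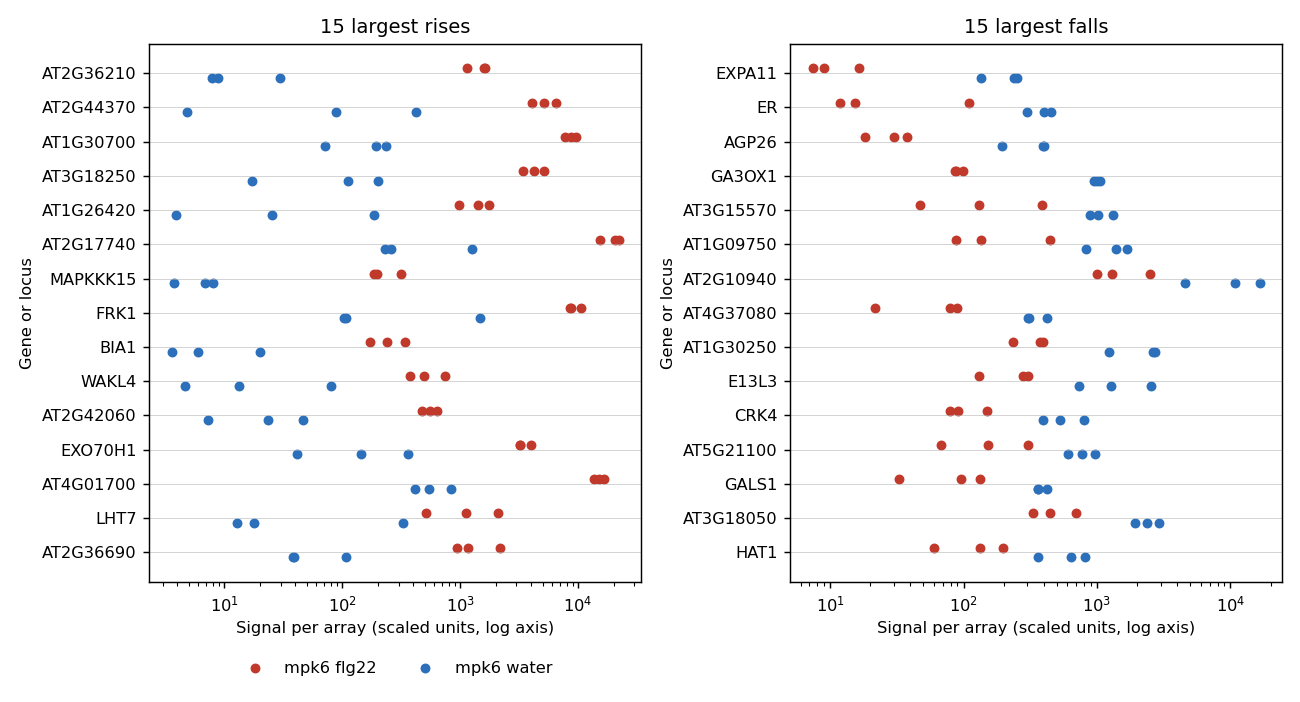
Signal per array, on a log axis in scaled units, of the genes with the 15 largest rises (first panel) and the 15 largest falls (second panel) in mpk6 leaves. Each point is 1 array, mpk6 flg22 in red above mpk6 water in blue; no gene shown has overlapping treatments. Signals of groups called absent, such as AT2G36210 in water and EXPA11 in flg22, are at background and set only a bound.

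Few genes of the cascade in which MPK6 acts passed the threshold. Of 17 measured genes of the MAP kinase cascade, 2 rose, 0 fell and the median log2 change was 0.72, against 0.01 over all probe sets; 2.17% of all probe sets rose. The log2 change was positive in 15 of the 17. In 7 of the 17 every flg22 array was above every water array, as in 9.46% of all probe sets. MPK17, a MAP kinase of another subgroup, had 5536, 4544 and 5096 in mpk6 flg22 and 1499, 1173 and 1186 in mpk6 water, and rose by 1.98 ± 0.241 (adjusted p 0.00110). MKS1, a substrate of MPK4 that binds WRKY factors, rose by 1.69 ± 0.339 (adjusted p 0.0175). Every flg22 array was above every water array for both genes. MPK3, the closest relative of MPK6, had 1137, 1009 and 1694 in mpk6 flg22 and 782, 659 and 1300 in mpk6 water; these overlap, and its log2 change of 0.51 ± 0.316 did not pass (adjusted p 0.527). MPK4 had a log2 change of 0.84 (adjusted p 0.0797). The call of MKS1 was lost without flg22 replicate 1 or 2 or water replicate 1 or 2, at adjusted p of 0.0510 to 0.0904.

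Among 12 genes for known or proposed MPK6 substrates, 2 rose and 0 fell, with a median log2 change of 0.45. Among all probe sets, 2.17% rose. ACS2, an enzyme of the committed step of ethylene synthesis, had 548, 531 and 487 in mpk6 flg22 and 229, 86.1 and 84.2 in mpk6 water, and rose by 2.14 ± 0.461 (adjusted p 0.0261). The zinc finger repressor gene STZ, also called ZAT10, rose by 1.67 ± 0.389 (adjusted p 0.0369). ERF104, the factor for which the study was made, had 139, 189 and 231 in mpk6 flg22 and 315, 185 and 279 in mpk6 water; the treatments overlapped, and its log2 change was −0.47 ± 0.437 (adjusted p 0.723).

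WRKY33, an activator of camalexin synthesis, had 622, 433 and 1674 in mpk6 flg22 and 138, 141 and 799 in mpk6 water. Replicate 3 was the highest array in both treatments, the treatments overlapped, and the log2 change of 1.62 ± 0.652 did not pass (adjusted p 0.245). The change was 2.46 without water replicate 3 (adjusted p 0.00304), while the adjusted p was 0.596 without water replicate 2. ACS6 had a log2 change of 0.94 ± 0.357 (adjusted p 0.211). The call of ACS2 was lost without flg22 replicate 1 or 2 or water replicate 2, and that of STZ without flg22 replicate 1, 2 or 3 or water replicate 1 or 2, at adjusted p of 0.0762 to 0.143.

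Of 15 measured genes of the receptor complexes, 5 rose and 0 fell, with a median log2 change of 1.13; 2.17% of all probe sets rose. In 12 of the 15 every flg22 array was above every water array, as in 9.46% of all probe sets. CERK1, the chitin receptor kinase, had 2299, 2384 and 2683 in mpk6 flg22 and 576, 443 and 902 in mpk6 water, and rose by 2.0 ± 0.289 (adjusted p 0.00321). BIK1, the cytoplasmic kinase that FLS2 and BAK1 release, had 4701, 5741 and 4302 in mpk6 flg22 and 1585, 1522 and 1625 in mpk6 water, and rose by 1.63 ± 0.240 (adjusted p 0.00354). Both genes were separated by far more than the spread of either treatment.

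BAK1 rose by 1.42 (adjusted p 0.0106), the chitin receptor partner LYK4 by 2.61 (adjusted p 0.0409) and BIR1, a kinase that restrains BAK1, by 1.13 (adjusted p 0.0285). FLS2 itself had 521, 437 and 534 in mpk6 flg22 and 324, 233 and 270 in mpk6 water. Its arrays did not overlap, but the log2 change of 0.86 ± 0.322 did not pass (adjusted p 0.201). Nor did that of the adaptor kinase gene SOBIR1 (1.37, adjusted p 0.0511), at 0.000983 without water replicate 3 and 0.188 without water replicate 1. The NADPH oxidase gene RBOHD of the oxidative burst did not pass either (0.98, adjusted p 0.166). Its adjusted p was 0.0269 without water replicate 3 and 0.450 without water replicate 2. The calls of BAK1, LYK4 and BIR1 were lost in 1 or more of the fits without flg22 replicate 1, 2 or 3 or water replicate 1 or 2, at adjusted p of 0.0538 to 0.160.

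Of 14 genes known as early outputs of pattern recognition, 8 rose and 0 fell, and the median log2 change was 2.05. Among all probe sets, 2.17% rose. Besides FRK1, PUB23 had 7303, 6067 and 4996 in mpk6 flg22 and 159, 152 and 692 in mpk6 water, and rose by 4.56 ± 0.480 (adjusted p 0.000491). PUB22 had 7284, 10002 and 5583 in mpk6 flg22 and 551, 425 and 988 in mpk6 water, and rose by 3.59 ± 0.336 (adjusted p 0.000245). PUB22, PUB23 and PUB24 are ubiquitin ligases that dampen pattern-triggered immunity, and PUB24 rose by 1.90 (adjusted p 0.0124). CBP60G, a regulator of salicylic acid synthesis, had 1529, 2184 and 2217 in mpk6 flg22 and 216, 106 and 480 in mpk6 water, and rose by 3.13 ± 0.452 (adjusted p 0.00321).

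The danger peptide precursor gene PROPEP3 was called absent in water and was at least 4.1-fold higher under flg22 (adjusted p 0.0487). NHL3 rose by 1.41 (adjusted p 0.0166). The syntaxin gene SYP122, which is also on the list of defence secretion, rose by 2.21 (adjusted p 0.0419). FRK1, PUB22, PUB23 and CBP60G kept their calls whichever array was left out. The other 4 lost them in 1 or more of the 6 such fits, at adjusted p of 0.0541 to 0.176; PROPEP3 lost its call in each of the 6, water replicate 3 included.

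Secretion carries defence proteins and callose to the wall. Of 5 measured genes, 3 rose and 0 fell, with a median log2 change of 1.08, where 2.17% of all probe sets rose. SYP121, the plasma membrane syntaxin also known as PEN1, had 2870, 2367 and 2767 in mpk6 flg22 and 492, 250 and 1056 in mpk6 water, and rose by 2.39 ± 0.417 (adjusted p 0.00859). Its partner gene SNAP33 rose by 1.08 (adjusted p 0.0399). The callose synthase gene GSL05 had a log2 change of 0.49 (adjusted p 0.410). The calls of SYP121, SYP122 and SNAP33 were lost without flg22 replicate 1, and those of SYP122 and SNAP33 also without flg22 replicate 2 or 3 or water replicate 1 or 2, at adjusted p of 0.0654 to 0.175. Of 11 genes for calcium kinases and sensors, 0 passed in either direction; their log2 changes ran from −0.92 to 1.46, with a median of 0.44.

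WRKY factors bind the W-box of defence promoters. Of 25 measured, 10 rose and 0 fell, where 2.17% of all probe sets rose, and the median log2 change was 1.60. WRKY17 had 3639, 4430 and 2080 in mpk6 flg22 and 324, 238 and 379 in mpk6 water, and rose by 3.39 ± 0.321 (adjusted p 0.000245). WRKY22, placed downstream of the flg22-activated MAP kinases, had 6091, 5775 and 3401 in mpk6 flg22 and 609, 384 and 708 in mpk6 water, and rose by 3.17 ± 0.313 (adjusted p 0.000325). The lowest flg22 array was replicate 3 for both, and it still lay far above the highest water array.

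WRKY11, a relative of WRKY17 with which it restrains basal defence, had 5253, 4888 and 3930 in mpk6 flg22 and 724, 1019 and 1642 in mpk6 water, and rose by 2.13 ± 0.308 (adjusted p 0.00322). WRKY7 of the same subgroup rose by 2.28 (adjusted p 0.000998), WRKY28 by 2.03 (adjusted p 0.00467), WRKY15 by 1.90 (adjusted p 0.00535) and WRKY48 by 1.89 (adjusted p 0.00336). WRKY8 rose by 1.60 (adjusted p 0.0190) and WRKY6 by 1.57 (adjusted p 0.0448), and WRKY72, called absent in water, was at least 4.01-fold higher (adjusted p 0.0325).

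WRKY53 had 985, 475 and 2225 in mpk6 flg22 and 99.2, 119 and 1285 in mpk6 water, a log2 change of 2.03 ± 0.822 that did not pass (adjusted p 0.248). WRKY40 had 532, 458 and 1131 in mpk6 flg22 and 183, 223 and 665 in mpk6 water (log2 change 1.12, adjusted p 0.306). The adjusted p of WRKY53 was 0.000336 without water replicate 3 and 0.597 without water replicate 2, and that of WRKY40 was 0.0201 and 0.641. In WRKY33, WRKY40 and WRKY53 water replicate 3 was above flg22 replicates 1 and 2. WRKY7, WRKY11, WRKY17, WRKY22, WRKY28 and WRKY48 kept their calls whichever array was left out, while those of WRKY6, WRKY8, WRKY15 and WRKY72 were lost in 1 or more of the fits without flg22 replicate 1, 2 or 3 or water replicate 1 or 2, at adjusted p of 0.0504 to 0.188.

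Of the ethylene genes, 1 passed. Of 12 genes of ethylene synthesis, ACS2 rose and 0 fell, where 2.17% of all probe sets rose. The median log2 change was 1.02, against 0.01 over all probe sets, and 5 of the 12 were called absent on all 6 arrays. EFE, an enzyme of the final step, had 8531, 10460 and 6005 in mpk6 flg22 and 5042, 2887 and 3727 in mpk6 water. The treatments did not overlap, but the log2 change of 1.1 did not pass (adjusted p 0.0815). Its adjusted p was 0.0430 without flg22 replicate 3 and 0.342 without water replicate 2. ACS2 lost its call without flg22 replicate 1 or 2 or water replicate 2, at adjusted p of 0.0965 to 0.128. Of 11 genes from ethylene receptors to EIN3, 0 passed, with log2 changes from −1.11 to 0.98 and a median of −0.03. Of 12 ethylene response factor genes, 0 passed either, with log2 changes from −1.24 to 1.16 and a median of 0.10; 4 were called absent on all 6 arrays.

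Of 17 genes of salicylic acid synthesis and response, CBP60G rose and 0 fell, with a median log2 change of 0.51; 2.17% of all probe sets rose. EDS16, the isochorismate synthase gene, had 185, 200 and 232 in mpk6 flg22 and 19.8, 93.6 and 239 in mpk6 water, which overlap (log2 change 1.43, adjusted p 0.474). PR1 had 93.3, 107 and 70.1 in mpk6 flg22, where it was called absent, and 247, 16.8 and 62 in mpk6 water (adjusted p 0.900), so no fold is given.

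Of 21 jasmonate genes, 2 rose and 0 fell, with a median log2 change of 0.43, where 2.17% of all probe sets rose. LOX3, a lipoxygenase of jasmonate synthesis, had 4719, 3765 and 5155 in mpk6 flg22 and 2253, 1177 and 781 in mpk6 water, and rose by 1.82 ± 0.350 (adjusted p 0.0139). The repressor gene JAZ1 rose by 1.26 ± 0.256 (adjusted p 0.0189), and JAZ10 had a log2 change of 1.14 (adjusted p 0.0656). The calls of LOX3 and JAZ1 were lost without flg22 replicate 1 or water replicate 2, and that of JAZ1 also without flg22 replicate 2 or water replicate 1, at adjusted p of 0.0542 to 0.115. Of 4 measured defensin and chitinase genes, 0 passed, and their signals were low, at group means averaging 11.9 to 231.

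Phenylpropanoid enzymes make the precursors of lignin and soluble phenolics. Of 17 genes, 7 rose and 0 fell, with a median log2 change of 1.27, where 2.17% of all probe sets rose. PAL1, the entry enzyme, had 11915, 17166 and 12111 in mpk6 flg22 and 1918, 1132 and 2360 in mpk6 water, and rose by 2.97 ± 0.320 (adjusted p 0.000536). C4H, the next enzyme, had 18627, 26048 and 14454 in mpk6 flg22 and 6777, 4058 and 3376 in mpk6 water, and rose by 2.08 ± 0.359 (adjusted p 0.00824). 4CL1, the third, had 7196, 14010 and 8651 in mpk6 flg22 and 2080, 2387 and 3569 in mpk6 water, and rose by 1.87 ± 0.325 (adjusted p 0.00843). The treatments stayed apart at all of these steps.

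On the branch to lignin monomers, CCoAOMT1 rose by 1.88 (adjusted p 0.0124) and CAD5 by 1.44 (adjusted p 0.0301). CCR2, called absent in water, was at least 5.45-fold higher (adjusted p 0.0449). PAL2 rose by 1.36 (adjusted p 0.0400). PAL1 and 4CL1 kept their calls whichever array was left out; PAL2, C4H, CCoAOMT1, CCR2 and CAD5 lost theirs in 1 or more of the fits without flg22 replicate 1, 2 or 3 or water replicate 1 or 2, at adjusted p of 0.0516 to 0.214.

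Of 14 measured class III peroxidase genes, which cross-link wall phenolics, 4 rose and 0 fell, with a median log2 change of 1.96. Among all probe sets, 2.17% rose, and 7 of the 14 genes were called absent on all 6 arrays. AT5G64120, listed as PRX71, was the brightest, with 44970, 50966 and 35238 in mpk6 flg22 and 7736, 5259 and 6901 in mpk6 water, and rose by 2.72 ± 0.358 (adjusted p 0.00182). AT5G39580 rose by 3.67 (adjusted p 0.00989) and PRX52 by 3.43 (adjusted p 0.0112), and AT4G36430 was at least 8.22-fold higher (adjusted p 0.0407). AT5G64120 kept its call whichever array was left out; AT5G39580, PRX52 and AT4G36430 lost theirs without flg22 replicate 1 or 2, and AT5G39580 and AT4G36430 also without water replicate 1, at adjusted p of 0.0509 to 0.188.

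Of 8 measured loci listed as berberine bridge enzyme-like, a list whose members carry no such name in the gene table, 3 rose and 0 fell. Their median log2 change was 1.67, and 2.17% of all probe sets rose. AT1G30700 and AT1G26420 are among the largest rises above. AT4G20830 had 4404, 7744 and 5775 in mpk6 flg22 and 2001, 1588 and 2305 in mpk6 water, and rose by 1.58 ± 0.284 (adjusted p 0.00996). The calls of AT1G26420 and AT4G20830 were lost without flg22 replicate 2, that of AT1G26420 also without flg22 replicate 1 and that of AT4G20830 also without water replicate 2, at adjusted p of 0.0588 to 0.0638. Of 13 tau-class glutathione transferase genes, 0 passed, with log2 changes from −1.75 to 1.69 and a median of 0.15.

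Tryptophan feeds indole glucosinolates and camalexin, the main indole defence compounds of this species. Of 4 measured genes of tryptophan synthesis, TSA1 rose, with 3798, 4271 and 3532 in mpk6 flg22 and 977, 817 and 1022 in mpk6 water, a log2 change of 2.04 ± 0.237 (adjusted p 0.000818). TSA1 kept its call whichever array was left out. Of 19 indole glucosinolate genes, 1 rose and 0 fell, with a median of 0.28, where 2.17% of all probe sets rose. The gene was CYP83B1, which commits indole oxime to glucosinolates, with a rise of 1.35 ± 0.341 (adjusted p 0.0487). That call was lost without flg22 replicate 1 or 2 or water replicate 1 or 2 at adjusted p of 0.0778 to 0.234.

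CYP81F2, which modifies the indole ring, had 466, 226 and 2005 in mpk6 flg22 and 24, 8.43 and 502 in mpk6 water. Its log2 change of 3.67 ± 1.23 was the largest of the list, but replicate 3 was the highest array in both treatments and the change did not pass (adjusted p 0.146). PEN2, the myrosinase of this pathway, had a log2 change of 1.34 (adjusted p 0.0635) and the transporter gene PEN3 of 1.25 (adjusted p 0.0735). Without water replicate 3 the adjusted p of CYP81F2, PEN2 and PEN3 was 0.000518, 0.00343 and 0.0353. Without water replicate 2 it was 0.420, 0.293 and 0.358. Of 3 camalexin genes, 0 passed; their group means averaged 56.5 to 69.9.

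Chaperones of the ER fold secreted and membrane proteins, and among the lists chosen here this list had the highest share of calls in the main fit. The lists were chosen with earlier results of these data known, so this rank is a description. Most of these calls were lost after median centring, as given below. Of 15 measured genes, 11 rose, 0 fell and all 15 log2 changes were positive, with a median of 1.52; 2.17% of all probe sets rose. In 13 of the 15 every flg22 array was above every water array, as in 9.46% of all probe sets. UTR1, a nucleotide sugar transporter of the ER, had 3559, 2630 and 1818 in mpk6 flg22 and 511, 519 and 889 in mpk6 water, and rose by 2.06 ± 0.317 (adjusted p 0.00467). BIP3, the stress-inducible Hsp70 chaperone, had 821, 490 and 525 in mpk6 flg22 and 43.3, 90.9 and 94.0 in mpk6 water, and rose by 3.05 ± 0.477 (adjusted p 0.00494). PDIL1-2, a protein disulfide isomerase, had 6600, 8555 and 6173 in mpk6 flg22 and 1788, 999 and 2911 in mpk6 water, and rose by 2.02 ± 0.356 (adjusted p 0.00911).

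The J-domain co-chaperone genes ATERDJ3B, ATERDJ3A and P58IPK rose by 1.97, 1.92 and 1.39, and PDIL1-1 and SDF2 by 1.37 and 1.39. The lectin chaperone genes CRT1b and CNX1 rose by 1.54 and 1.51, and SHD, the Hsp90 of the ER, by 1.54. The adjusted p of these 8 genes was 0.0140 to 0.0474. Median centring ended the calls of all 8, at adjusted p of 0.0588 to 0.176. In SHD, CNX1 and CRT1b water replicate 3 was the highest water array, with 10129, 9956 and 7125. UTR1 alone kept its call whichever array was left out; the other 10 lost theirs without flg22 replicate 1, and up to 8 of them without flg22 replicate 2 or 3 or water replicate 1 or 2, at adjusted p of 0.0513 to 0.199.

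Of 27 measured photosynthesis genes, 2 fell and 0 rose; 1.55% of all probe sets fell. All 27 were called present on all 6 arrays of this leaf tissue, with group means averaging 4214 to 46217. All 27 log2 changes were negative, with a median of −0.37. PRK, the phosphoribulokinase of the Calvin cycle, had 4270, 4545 and 9906 in mpk6 flg22 and 17334, 16086 and 15539 in mpk6 water, and fell by 1.5 on the log2 scale (SE 0.363; adjusted p 0.0432). PETE1, a plastocyanin, had 1799, 1896 and 3734 in mpk6 flg22 and 6492, 4959 and 6406 in mpk6 water, a log2 change of −1.34 ± 0.314 (adjusted p 0.0377). Flg22 replicate 3 was the highest flg22 array for both and still below the water arrays.

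PSBO2, of the oxygen-evolving complex, changed by −1.25 (adjusted p 0.0693). Its adjusted p was 0.0289 without flg22 replicate 3 and 0.336 without flg22 replicate 1. The calls of PRK and PETE1 were lost without flg22 replicate 1 or 2 or water replicate 1 or 2, at adjusted p of 0.0790 to 0.237, and after centring, at adjusted p of 0.169 for PRK and 0.152 for PETE1. In leaf RNA, fewer cells of a type and less RNA per cell cannot be told apart.

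Few gibberellin genes were called, and the calls went in both directions. Of 16 genes, 1 rose and 2 fell, with a median log2 change of −0.16, and 5 were called absent on all 6 arrays. Among all probe sets, 2.17% rose and 1.55% fell. GA3OX1, described above, makes the active hormone. GA2OX6, which inactivates it, had 6307, 4802 and 2300 in mpk6 flg22 and 1812, 1591 and 983 in mpk6 water, and rose by 1.54 ± 0.370 (adjusted p 0.0415). GAI, a DELLA repressor of gibberellin responses, had 310, 293 and 374 in mpk6 flg22 and 2200, 1603 and 574 in mpk6 water, a log2 change of −1.97 ± 0.426 (adjusted p 0.0269). Neither gene had overlapping treatments.

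The second DELLA gene RGA1 changed by −0.93 (adjusted p 0.132) and the receptor gene GID1A by −1.04 (adjusted p 0.0780), and neither passed. GA2OX2 had 289, 182 and 198 in mpk6 flg22 and 112, 23.0 and 14.7 in mpk6 water, where it was called absent (adjusted p 0.116). GA3OX1 kept its call whichever array was left out, while GA2OX6 and GAI lost theirs without flg22 replicate 1 or 2 or water replicate 1 or 2, at adjusted p of 0.0715 to 0.205.

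The lists of auxin and of wall loosening held 1 fall each, where 1.55% of all probe sets fell. Of 11 Aux/IAA repressor genes, IAA13 fell, with 232, 145 and 265 in mpk6 flg22 and 654, 1064 and 421 in mpk6 water, a log2 change of −1.68 ± 0.407 (adjusted p 0.0431). The median of that list was −0.84, and IAA1 had a log2 change of −0.55 (adjusted p 0.508). Of 8 alpha-expansin genes, EXPA11 fell, with a list median of −0.13. EXPA8 had 48.3, 35.6 and 141 in mpk6 flg22 and 309, 466 and 205 in mpk6 water. Its log2 change of −2.31 did not pass (adjusted p 0.0750), at 0.0281 without flg22 replicate 3 and 0.365 without water replicate 2.

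Of 6 class II HD-ZIP genes, HAT1 fell, with 60.4, 134 and 197 in mpk6 flg22 and 810, 642 and 364 in mpk6 water (log2 change −2.30 ± 0.502, adjusted p 0.0279). The list median was −0.98, and HAT22 went the other way, with a log2 change of 1.17 that did not pass (adjusted p 0.0690). Its adjusted p was 0.0157 without flg22 replicate 3 and 0.296 without flg22 replicate 1. Among all probe sets, 1.55% fell. IAA13, EXPA11 and HAT1 each lost their call without flg22 replicate 1 or 2 or water replicate 1 or 2, at adjusted p of 0.0504 to 0.239.

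Of 12 genes of the stomatal lineage, ER and STOMAGEN fell, with a list median of −0.11, and 5 were called absent on all 6 arrays. Among all probe sets, 1.55% fell. STOMAGEN, a mesophyll peptide that raises stomatal density, had 247, 96.4 and 133 in mpk6 flg22, where it was called absent, and 768, 617 and 746 in mpk6 water. Its fitted log2 change was −2.27 (adjusted p 0.00946). The flg22 signals lay above their floors of 111, 69.0 and 30.9, so no bound was set. ER lost its call without flg22 replicate 1 or 2 or water replicate 1 or 2, and STOMAGEN without water replicate 1, at adjusted p of 0.0507 to 0.125.

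Of 14 measured genes of abscisic acid and cold, 1 fell and 0 rose; 1.55% of all probe sets fell. All 14 log2 changes were negative, with a median of −0.87. ERD10, a dehydrin, had 4300, 5328 and 6699 in mpk6 flg22 and 13834, 13959 and 12332 in mpk6 water, a log2 change of −1.32 ± 0.297 (adjusted p 0.0317). The related dehydrin gene COR47 had 9658, 6255 and 7638 in mpk6 flg22 and 20394, 20515 and 15853 in mpk6 water (log2 change −1.28, adjusted p 0.0518). ERD10 and COR47 were both clear of overlap, and ERD10 lost its call without flg22 replicate 1 or 2 or water replicate 1 or 2, at adjusted p of 0.0901 to 0.191. Of 10 clock genes, 0 passed, with log2 changes from −0.71 to 0.30 and a median of −0.13.

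Markers of other leaf cell types gave no calls. None of 6 guard cell, 6 vascular, 5 epidermis or trichome and 5 root or flower markers passed, with medians of −0.34, −0.21, −0.48 and 0.15 on the log2 scale. Summed signals of the guard cell markers were 824 to 1280 in mpk6 flg22 and 1046 to 1512 in mpk6 water, those of the vascular markers 3207 to 4518 in mpk6 flg22 and 2796 to 5723 in mpk6 water, and those of the epidermis and trichome markers 3672 to 9871 in mpk6 flg22 and 3713 to 10173 in mpk6 water. Root and flower markers summed to 136 to 640 in mpk6 flg22 and 177 to 421 in mpk6 water, and 4 of the 5 were called absent on all 6 arrays.

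**Figure D4:**
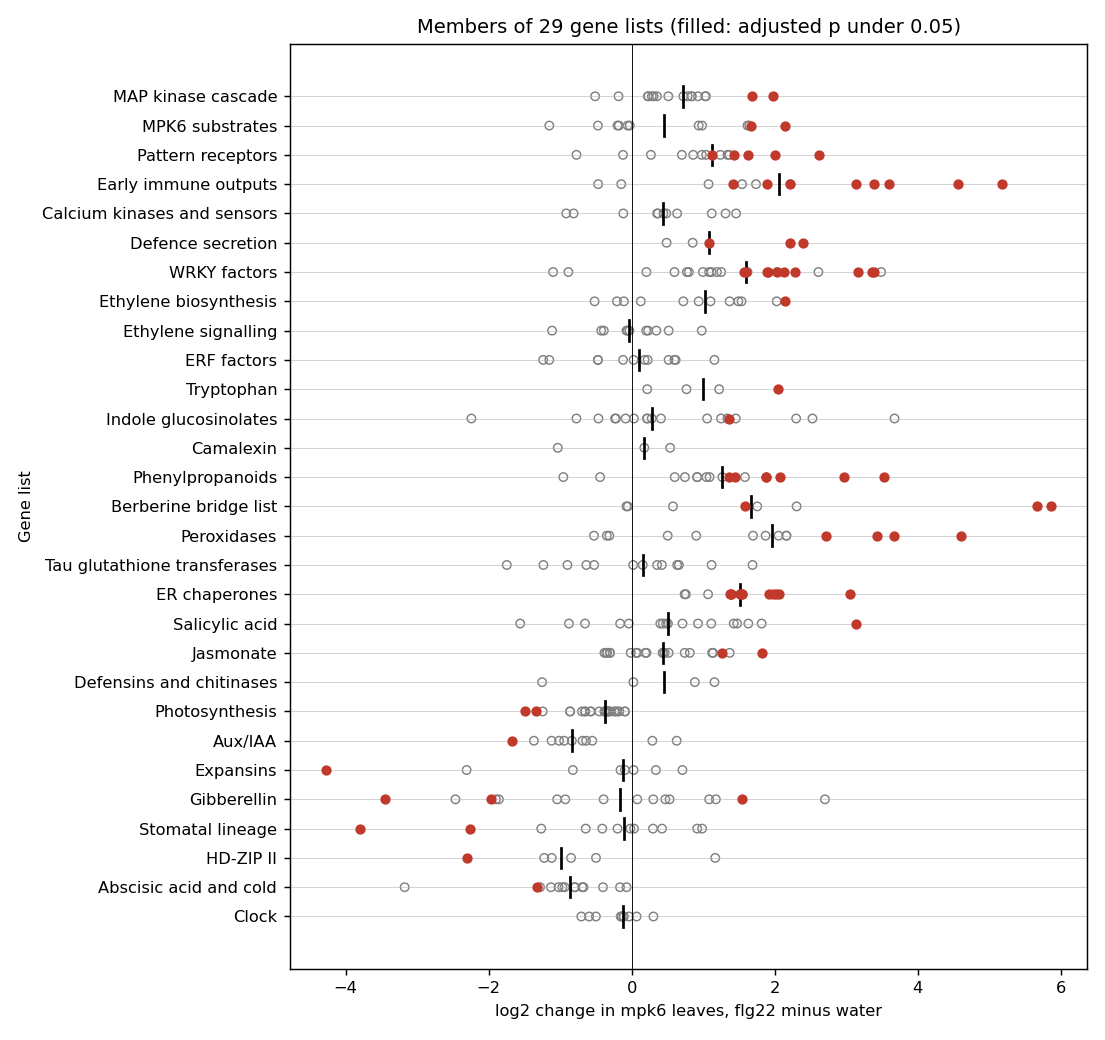
Log2 change, flg22 minus water in mpk6 leaves, of each measured member of 29 gene lists. Each circle is 1 gene, filled where the adjusted p was under 0.05, and the black bar is the list median. ER chaperones, WRKY factors and early immune outputs hold most filled circles to the right of 0, and photosynthesis and the abscisic acid and cold list lie wholly to the left of 0. Values of genes called absent in 1 treatment are fitted values, not bounds. Members and lists were chosen with earlier results of these data known.

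Whether the response without MPK6 differs from that of the other genotypes was tested gene by gene as a difference of responses. Of 22746 probe sets, 0 passed for mpk6 minus 35S::ERF104, 0 for mpk6 minus erf104 and 0 for mpk6 minus Col-0 (0% each). At an unadjusted p under 0.05 there were 967 (4.25%) for mpk6 minus 35S::ERF104, 610 (2.68%) for mpk6 minus erf104 and 701 (3.08%) for mpk6 minus Col-0. The smallest adjusted p was 0.994 against 35S::ERF104, 0.975 against erf104 and 1.00 against Col-0. The comparison with erf104 left out 1 flg22 array, replicate 2, which stood apart: correlations among the erf104 flg22 arrays ran from 0.23, with replicate 2, to 0.91 between the other two. A difference that misses the threshold does not show that the responses were alike: for FRK1 the mpk6 response minus that of Col-0 was 0.15 with an SE of 1.32 on the log2 scale, and minus that of 35S::ERF104 it was 1.98 with an SE of 1.0.

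The lists of changed probe sets ran in the same directions, with no array shared between the responses. Of the 494 probe sets that rose in mpk6, 494 had a positive log2 change in 35S::ERF104, 493 in erf104 and 489 in Col-0, against 43.9% of all probe sets in 35S::ERF104, 45.7% in erf104 and 35.6% in Col-0. Their median log2 change was 1.92 in mpk6, against 1.49 in 35S::ERF104, 1.82 in erf104 and 1.99 in Col-0. Of the 353 that fell in mpk6, 351 were negative in 35S::ERF104, 352 in erf104 and 349 in Col-0, against 56.1% of all probe sets in 35S::ERF104, 54.3% in erf104 and 64.4% in Col-0. Their median was −1.46 in mpk6, against −1.15 in 35S::ERF104, −1.13 in erf104 and −1.17 in Col-0. The mpk6 medians are of probe sets chosen on those same values, so their sizes are a description.

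Of the 847 called in mpk6, 770 were also called in 35S::ERF104 (90.9% of the mpk6 list and 18.4% of the 4177 called there), 697 in erf104 (82.3% and 31.6% of 2209) and 336 in Col-0 (39.7% and 79.6% of 422), and 0 were called in opposite directions. Arrays of Col-0 agreed less well among themselves, with correlations of 0.73 to 0.84 under flg22 and 0.61 to 0.73 under water, than those of mpk6. Across all 22746 probe sets the mpk6 log2 changes correlated with those of 35S::ERF104 at a Pearson r of 0.36, of erf104 at 0.37 and of Col-0 at 0.26; probe sets are not independent replicates.

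The responses of single genes are given side by side, since no difference passed. MAPKKK15 had a fitted log2 change of 5.26 in mpk6, against 1.95 in 35S::ERF104, 4.18 in erf104 and 0.87 in Col-0, and the mpk6 value comes from water arrays at background; its difference from Col-0 was 4.39 ± 1.19 (SE; adjusted p 1.00). HAT1 changed by −2.30 in mpk6, against −2.52 in 35S::ERF104, −1.39 in erf104 and −4.25 in Col-0. FRK1 rose by 5.18 in mpk6, against 3.20 in 35S::ERF104, 3.46 in erf104 and 5.04 in Col-0. AT1G30700 rose by 5.87 in mpk6, against 5.14 in 35S::ERF104, 5.24 in erf104 and 5.65 in Col-0, and AT4G01700 by 4.71 in mpk6, against 3.33 in 35S::ERF104, 4.06 in erf104 and 4.82 in Col-0. The difference of FRK1 and of PUB23 from 35S::ERF104 passed in the fit without mpk6 water replicate 3.

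**Figure D5:**
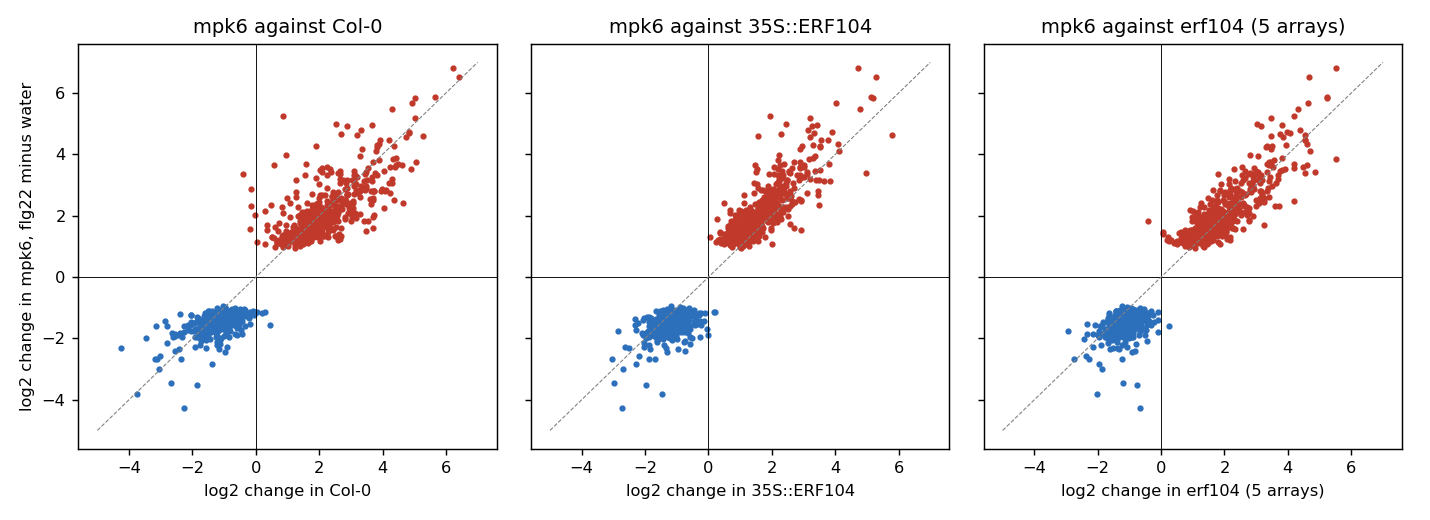
Log2 change of the 847 probe sets called in mpk6 (vertical axis) against the log2 change of the same probe sets in Col-0, 35S::ERF104 and erf104 (horizontal axes; erf104 over 5 arrays). Red points rose and blue points fell in mpk6, and the dashed line marks equal change. Of the 494 red points, 489 lie to the right of 0 for Col-0, 494 for 35S::ERF104 and 493 for erf104.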

How the data were processed

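Per the labels, leaf RNA was hybridised to Affymetrix ATH1 arrays. The authors deposited 1 linear intensity per probe set and array; no source used here names the software that summarised probes, and the series text names Genespring GX 7.3.1 for analysis. A second table deposited by the authors holds detection calls (other) and mean intensity per group; it served for calls and locus names, and 32 further group columns, whose names match no label, were not used. Of 22810 probe sets, 64 controls were left out. Log2 of intensity was used without pseudocount or filter, since calls are known per group only. The flg22 response was fitted on the 6 mpk6 arrays, and differences of responses on 12 or 11 arrays, by limma 3.58.1 (R 4.3.3; lmFit, then eBayes with its trend option), Benjamini-Hochberg adjusted over 22746 probe sets at a threshold of 0.05. Changes are flg22 minus water on the log2 scale, with SE.

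Of 416 listed genes, 385 have a probe set that matches 1 gene; a gene with several was taken by its brightest. Symbols come from the RefSeq gene table by locus. Named genes are MPK6, FRK1, the 15 largest rises and falls among called probe sets of 1 gene without overlap, and list members. Members and lists were chosen with earlier results of these data known. Alternatives were median centring, quantile normalization, no variance trend, a call filter, a replicate block, log2(signal + 50), fits of 24 and 23 arrays, the study's one-way ANOVA and leaving out each array. The procedure was also run on simulated data with noise independent between probe sets and arrays. A shift that many probe sets of an array share was not simulated, and no result here rests on that run. Promoter sequences were not used here. Python 3.11.15 and matplotlib 3.10.9 drew the figures.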

Additional observations from a re-analysis of the deposited data

How the results depend on the processing

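The count of 847 (494 rose, 353 fell) kept within 1.5 times under quantile normalization (709), the call filter (836) and log2(signal + 50) (745). It was 356 after median centring (265 rose, 91 fell), 0 without the variance trend (2732 at an unadjusted p under 0.05), 333 in 1 fit of all 24 arrays (231 rose, 102 fell) and 1291 in 1 fit of 23 arrays (636 rose, 655 fell). The study's one-way ANOVA, with no fold threshold, called 2977 before and 1 after adjustment. Leaving out 1 array gave 198 to 1296, with 81.3% rises without flg22 replicate 1 and 43.3% without flg22 replicate 3, against 58.3% with all arrays. With the replicate number as a block it was 2053 (947 rose, 1106 fell), and all 847 were among them. Same-numbered arrays correlated at 0.17, 0.06 and 0.36 in their deviations from the group means. Differently numbered arrays ran from −0.30 (flg22 replicate 3 with water replicate 1) to 0.18 (flg22 replicate 2 with water replicate 1). The numbers were not taken to pair the samples in the main fit. Whether arrays of the same number shared a batch was not tested.

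Differences of responses stayed at 0 calls except in fits without 1 array, which gave 0 to 2 for mpk6 minus 35S::ERF104 (AT5G01590 and NUDX14 without mpk6 flg22 replicate 3; PUB23 and FRK1 without mpk6 water replicate 3), 0 to 1 for mpk6 minus erf104 (AT1G27330 without mpk6 water replicate 3) and 0 to 0 for mpk6 minus Col-0. MPK6 in mpk6 against Col-0, at −1.58 on the log2 scale, passed with 23 arrays in 1 fit (−1.58, adjusted p 0.00127); without 1 array it ran from −1.72 (adjusted p 0.0442, without Col-0 water replicate 3) to −1.46. Of 92 named genes past the threshold, calls were lost by 36 after centring, 13 under quantile normalization, 7 under the call filter, 9 with log2(signal + 50), 36 with 24 arrays, 4 with 23 arrays and all 92 without the variance trend; the block ended no call. Leaving out flg22 replicate 1, 2 or 3 ended 58, 49 and 15 calls, and water replicate 1, 2 or 3 ended 41, 45 and 3. PR1, uncalled, ranged from −0.48 to 1.46 in these fits. The causes were not tested.

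Sizes of groups called absent are bounds, set per array by the lowest signal among probe sets called present throughout the group: 111, 69.0 and 30.9 on flg22 replicates 1, 2 and 3, and 86.0, 52.7 and 41.1 on water replicates 1, 2 and 3. STOMAGEN was given as a fitted change, since its flg22 signals lay above these floors. With 3 arrays a group, their number limits the precision.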

Other observations

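Other families, grouped by symbol among probe sets of 1 gene, were counted after the values were seen. Of 38 cysteine-rich receptor-like kinase (CRK) probe sets, 7 rose (CRK2, CRK3, CRK11, CRK13, CRK19, CRK20 and CRK29) and 2 fell (CRK1 and CRK4), with a median log2 change of 1.38. Among all probe sets, 2.17% rose and 1.55% fell. Of 12 protein disulfide isomerase-like (PDIL) probe sets, 5 rose, with a median of 0.37, where 2.17% of all probe sets rose. Of 24 probe sets whose symbols begin with EXO, EXO70H1, EXO70H2 and EXO70B2 rose, with a median of 0.34. Of 15 MLO probe sets, MLO6 and MLO12 rose. Of 16 glutamate receptor-like (GLR) probe sets, GLR1.1 and GLR2.7 rose. The share of all probe sets that rose, 2.17%, stands beside these counts too. Other families held falls only. Of 10 ABCC probe sets, ABCC1, ABCC8 and ABCC14 fell, with a median of −1.07, where 1.55% of all probe sets fell. Of 14 BGAL probe sets, BGAL2, BGAL3 and BGAL8 fell, with a median of −0.47.

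Some risen genes were neighbours in the genome order of the RefSeq gene table. Of 451 risen genes with a measured neighbour, 47 (10.4%) had a neighbour that rose, against 3.81% of all 19101 measured genes with one. Examples were the lectin receptor kinase genes LECRKA4.1, LECRKA4.2 and LECRKA4.3 (log2 changes 2.42, 2.80 and 4.16), the pair CRK2 and CRK3 (2.08 and 2.07), the pair AT1G51850 and AT1G51860 (4.29 and 3.56), and AT2G44370 with AT2G44380 (6.51 and 3.21). Whether similar sequences share probes in these pairs was not tested.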
